A study of Mus musculus with 4 samples.

Results

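The Slc25 genes encode the mitochondrial carrier family, transport proteins that sit mostly in the inner mitochondrial membrane and swap nucleotides, phosphate, amino acids, organic acids, cofactors and metals between the matrix and the cytosol. Members were chosen by name alone: every gene of the 4 count files that is annotated as protein-coding and whose symbol is Slc25a followed by a number. This gave 43 genes of 22078 with at least 1 unique molecular identifier (UMI, the tag that marks 1 captured RNA molecule) in any file. The annotation lists 47 such genes, and Slc25a2, Slc25a18, Slc25a31 and Slc25a47 had no UMI in these files. All 43 had UMIs in the retained cells, 21 of them at least 100 UMIs and 22 of them 1 to 99 UMIs.

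The carriers connect cytosolic metabolism to the respiratory chain. ADP/ATP and phosphate carriers feed ATP synthase and export its product, the aspartate/glutamate and oxoglutarate/malate carriers run the shuttle that brings reducing equivalents into the matrix, and ornithine, dicarboxylate and citrate carriers serve nitrogen disposal, gluconeogenesis and lipid synthesis. In the kidney both the proximal tubule, which reabsorbs most of the filtrate and makes glucose, and the thick ascending limb, distal convoluted tubule and intercalated cells, which drive ion pumps, are rich in mitochondria.

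The cells were from the renal cortex of mice and were profiled by Drop-seq, a droplet method that tags the 3' ends of polyadenylated RNA from single cells. The Akita group held 2 libraries from C57BL/6-Ins2Akita/J mice, which carry a dominant insulin gene mutation and become diabetic, aged 116 and 119 days (Akita 1 and Akita 2). The wild-type group held 2 libraries, from mice aged 45 and 51 days (Wild-type 1 and Wild-type 2). The diabetic animals were thus older in every case, so that genotype and age cannot be told apart. The labels also describe housing for 24 weeks with 8 mice per group, which is longer than any of these ages.

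After removing barcodes with fewer than 200 genes or more than 50% mitochondrial UMIs, 1916 cells remained: 311 and 600 from Akita mice, with 557780 and 755603 UMIs, and 564 and 441 from wild-type mice, with 812747 and 703991 UMIs. In the files of Akita 2 and Wild-type 1, 884 cell barcodes were the same, whereas every other pair of files shared 3 or 4. Retained cells with such a barcode numbered 438 in Akita 2 (73% of its cells) and 454 in Wild-type 1 (80.5%), and they held 88.4% and 91.5% of the retained UMIs. Results below that rest on these libraries were therefore also computed, where enough cells were left, with the shared barcodes left out and with every shared barcode assigned to 1 library, chosen by the ratio of its UMIs in both files (363 kept in Akita 2 and 521 in Wild-type 1). Whether the doubled barcodes are the same cells was not tested. The SDs, SEs, p-values and statements of no overlap below treat Akita 2 and Wild-type 1 as separate libraries. If the cells are the same, the independent spread is smaller in number than the libraries counted.

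Cells were clustered on variable genes without any Slc25a gene and named by marker genes, so that levels of the carriers did not decide the classes. Proximal tubule-like cells numbered 1448 (245 and 441 in the Akita, 442 and 320 in the wild-type libraries), of which 682 were S3-like and 247 S1-like, the late and early stretches of that segment. Pooled distal tubule-like cells numbered 459 (65 and 155 against 120 and 119): 219 loop of Henle-like, 69 distal convoluted tubule-like, 60 connecting tubule-like and 111 intercalated-like cells. The loop of Henle-like and distal convoluted tubule-like classes both carried Slc12a3, the thiazide-sensitive cotransporter of the distal convoluted tubule, at 6622 and 7622 UMIs per 1000000 UMIs of the class (CPM), and Umod, the uromodulin gene of the thick ascending limb, at 3064 and 2594 CPM, so their separation from each other is doubtful. They came from a further split of the same cluster. The median was 644 UMIs per cell in loop of Henle-like and 2320 in distal convoluted tubule-like cells. The part of depth or doublets in their differences was not tested. Akita 1 had 5 connecting tubule-like and 8 intercalated-like cells, below the minimum of 10. Both of these classes were therefore tested in 3 libraries, among them Akita 2 and Wild-type 1 with their shared barcodes. Distal cells also carried RNA of proximal genes: the proximal markers summed to 17.9% and 9.03% of their proximal level in the Akita and to 9.71% and 20.6% in the wild-type libraries, a background below which a carrier's distal level cannot be read as expression.

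Summed over its members, the family took a larger share of the RNA in distal cells. Slc25a5, Slc25a4 and Slc25a3 carried this rise, and the remaining members together did not rise. The 43 members summed to 10172 and 10309.9 CPM in the Akita and 10554 and 10030.4 CPM in the wild-type libraries in pooled distal tubule-like cells, against 5595 and 6348 CPM (Akita) and 6346 and 6258 CPM (wild type) in proximal tubule-like cells. The difference averaged 4130 ± 348 CPM (SD, n = 4 libraries), and every distal value was above every proximal one. Slc25a5 alone held 63.9% to 64.8% of the members' UMIs in distal cells and 49.5% to 60.1% in proximal cells. Grouped by role and pooled over libraries, the ADP/ATP carriers stood at 8054 CPM in distal and 3994 CPM in proximal cells, and the phosphate and ATP-Mg carriers at 1017 and 655 CPM. The order turned for the di- and tricarboxylate carriers (163 CPM distal, 281 CPM proximal), the cofactor carriers (259 and 362 CPM) and the iron and glutathione carriers (328 and 431 CPM), and the amino acid carriers lay close together (246 and 269 CPM). These sums hold members that went opposite ways. Among amino acid carriers Slc25a12 stood at 139 CPM distal and 37.3 CPM proximal, and Slc25a15 at 6.40 and 82.3 CPM. Slc25a11 (122 and 76.4 CPM) and Slc25a28 (68.8 and 42.7 CPM) were higher in distal cells although the sums of their roles were lower. Counts were of 3' ends, 1 UMI per captured molecule, and were not divided by transcript length.

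**Figure D1:**
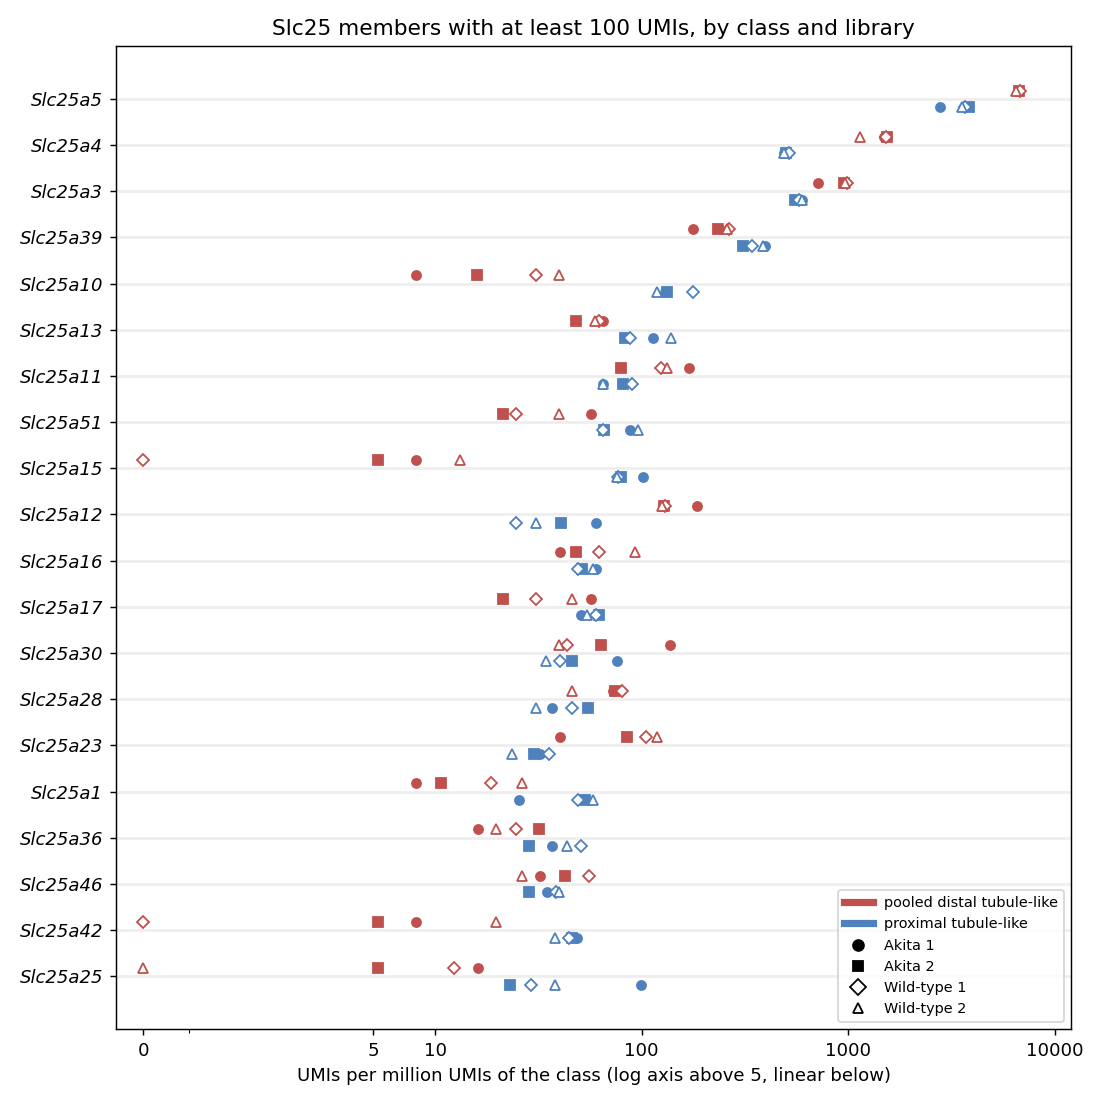
CPM (log axis above 5, linear below) of 20 of the 21 members with at least 100 UMIs in pooled distal tubule-like cells (red, upper row of each gene) and proximal tubule-like cells (blue, lower row), 1 point per library, with filled points for Akita and open points for wild type. Slc25a5, Slc25a4 and Slc25a12 lie higher in distal cells in all 4 libraries, and Slc25a10 and Slc25a15 lie lower.

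Which members differed between segments was tested with edgeR on UMI sums per library and class, with the library as a block. Of the 43 members 24 had enough UMIs for the pooled distal comparison, and 13 of these passed at an adjusted p under 0.05, 5 higher and 8 lower in distal cells. Among all 5531 genes tested, 46.7% passed, 22.5% higher and 24.2% lower, so the members' share was near the background and it is the identity of the members, not their number, that is described here. Fitted fold changes use TMM scaling factors, computed from the genes tested. The median log2 fold change was -0.33 over the 24 members and -0.01 over all genes. Left out were 19 members with too few UMIs, so these counts do not speak for the whole family. Slc25a1, Slc25a10, Slc25a15, Slc25a25 and Slc25a42 entered this test through their proximal levels, so their calls are no support. Their values below describe where they were high. With the shared barcodes left out 10 of 11 members tested passed, 9 of them among the 13, and with every shared barcode assigned to 1 library the same 13 passed, of 23.

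**Figure D2:**
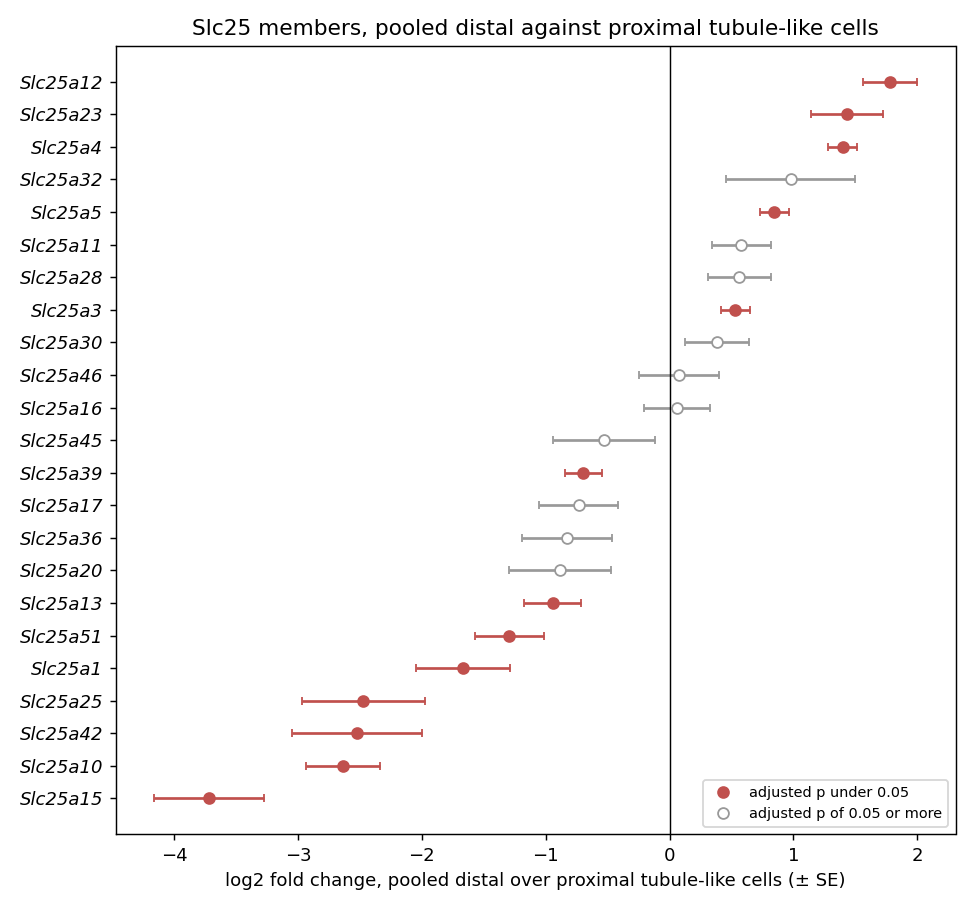
log2 fold change of 23 of the 24 members tested, pooled distal over proximal tubule-like cells (points, bars ± SE, edgeR, 4 libraries). Filled red points passed an adjusted p of 0.05: Slc25a12, Slc25a23, Slc25a4, Slc25a5 and Slc25a3 lie right of 0 and 8 members lie left of it, with Slc25a15 at -3.72.

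The ADP/ATP carriers, which export ATP made in the matrix in exchange for cytosolic ADP, held most of the family's RNA. Slc25a5 (chrX:36795651-36798807, plus strand), is the most widely expressed isoform, and Slc25a4 (chr8:46206797-46211284, minus strand) is the isoform of heart and skeletal muscle. Because the pair carries out the same exchange and differs here in where it was high, the 250 bases upstream of each RefSeq start are shown (GRCm38.p6), with CG dinucleotides in capitals.
Slc25a4 (chr8:46211063-46211312, minus strand): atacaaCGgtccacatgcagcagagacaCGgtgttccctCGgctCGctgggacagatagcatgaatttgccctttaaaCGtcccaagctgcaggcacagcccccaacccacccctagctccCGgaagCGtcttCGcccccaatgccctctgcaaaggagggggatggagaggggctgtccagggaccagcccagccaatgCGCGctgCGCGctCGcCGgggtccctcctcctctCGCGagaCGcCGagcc
Slc25a5 (chrX:36795347-36795596, plus strand): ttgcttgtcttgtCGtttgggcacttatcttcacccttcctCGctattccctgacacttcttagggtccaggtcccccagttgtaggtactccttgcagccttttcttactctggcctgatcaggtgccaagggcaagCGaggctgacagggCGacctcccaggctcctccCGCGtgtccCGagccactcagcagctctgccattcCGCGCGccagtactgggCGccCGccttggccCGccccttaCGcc
The Slc25a4 stretch held 18 CG dinucleotides at 64.8% G and C, and the Slc25a5 stretch 14 at 61.6%. Most of the Slc25a4 stretch lies inside the annotated gene span given above. The bases that follow the Slc25a5 stretch were not found at the start of an annotated transcript of the gene.

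Slc25a5 had 6590.2 and 6669.6 CPM in the Akita and 6741 and 6498 CPM in the wild-type libraries in pooled distal tubule-like cells, against 2768 and 3818 CPM (Akita) and 3665 and 3537 CPM (wild type) in proximal tubule-like cells. Every distal value was above every proximal one, and the log2 fold change was 0.85 ± 0.12 (SE; edgeR adjusted p = 1.63e-05). By class it averaged 7733 ± 811 CPM in distal convoluted tubule-like, 6219.6 ± 1360.3 CPM in loop of Henle-like, 5979 ± 315 CPM in intercalated-like and 4605 ± 756 CPM in connecting tubule-like cells, against 3483 ± 457 CPM in S3-like and 3075 ± 157 CPM in S1-like cells (SD over 4 libraries, 3 for connecting and intercalated). Loop of Henle-like and intercalated-like cells did not differ beyond their spread. The step over proximal cells passed the test in loop of Henle-like (log2 fold change 0.66 ± 0.13, SE, edgeR adjusted p = 8.48e-05) and distal convoluted tubule-like cells (log2 fold change 0.92 ± 0.15, SE, edgeR adjusted p = 6.46e-06) and did not in intercalated-like (log2 fold change 0.11 ± 0.15, SE, edgeR adjusted p = 0.625) or connecting tubule-like cells (log2 fold change -0.27 ± 0.24, SE, edgeR adjusted p = 0.447). These last results depend on the scaling: with UMI totals alone in place of the TMM factors, Slc25a5 was higher in intercalated-like cells (log2 fold change 0.71 ± 0.14, SE, edgeR adjusted p = 0.00429), and the sign turned to 0.27 in connecting tubule-like cells, without passing. A transcribed processed pseudogene, Slc25a5-ps on chromosome 14, was counted at 8.38% of the Slc25a5 UMIs in proximal and 7.07% in distal cells, and reads of so similar a copy may be split between the gene and its copy.

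Slc25a4 was also higher in distal cells. Slc25a4 had 1488 and 1531 CPM in the Akita and 1520.0 and 1136 CPM in the wild-type libraries in pooled distal tubule-like cells, against 489.5 and 501 CPM (Akita) and 514 and 486 CPM (wild type) in proximal tubule-like cells. The log2 fold change was 1.40 ± 0.12 (SE; edgeR adjusted p = 4.69e-08), with every distal library above every proximal one. Intercalated-like cells, the acid- and base-secreting cells of the connecting tubule and collecting duct, stood highest at 2738 CPM in Akita 2 and 2989.7 and 1756 CPM in the wild-type libraries. Distal convoluted tubule-like cells averaged 1308 ± 259.7 CPM, loop of Henle-like cells 1019 ± 137 CPM and connecting tubule-like cells 854 ± 307 CPM, and these 3 overlapped within their spread. Against proximal cells the log2 fold changes were 1.70 ± 0.15 (SE; edgeR adjusted p = 0.000387) in intercalated-like, 1.13 ± 0.15 (SE; edgeR adjusted p = 2.24e-07) in distal convoluted tubule-like and 0.86 ± 0.15 (SE; edgeR adjusted p = 2.52e-05) in loop of Henle-like cells, while connecting tubule-like cells did not pass at 0.15 ± 0.29 (SE; edgeR adjusted p = 0.744).

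Within the proximal tubule Slc25a4 was lower in the late stretch. It had 407 and 405 CPM in the Akita and 388 and 413 CPM in the wild-type libraries in S3-like cells, against 980.2 and 751 CPM (Akita) and 807 and 635 CPM (wild type) in S1-like cells. No S3-like value reached any S1-like one, and the log2 fold change was -0.99 ± 0.17 (SE; edgeR adjusted p = 5.02e-07). Slc25a5 did not pass, with a log2 fold change of 0.17 ± 0.14 (SE; edgeR adjusted p = 0.496). Of 17 members tested in this comparison 2 passed, both lower in S3-like cells, against 10.4% of the 3590 genes tested (6.32% higher, 4.12% lower). One of the 2 clusters named S3-like held 285 cells at a median of 2991 UMIs with no S3 marker among its leading genes. With the other cluster alone the Slc25a4 difference was -0.93 on the log2 scale, and with the shared barcodes left out no member passed.

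**Figure D3:**
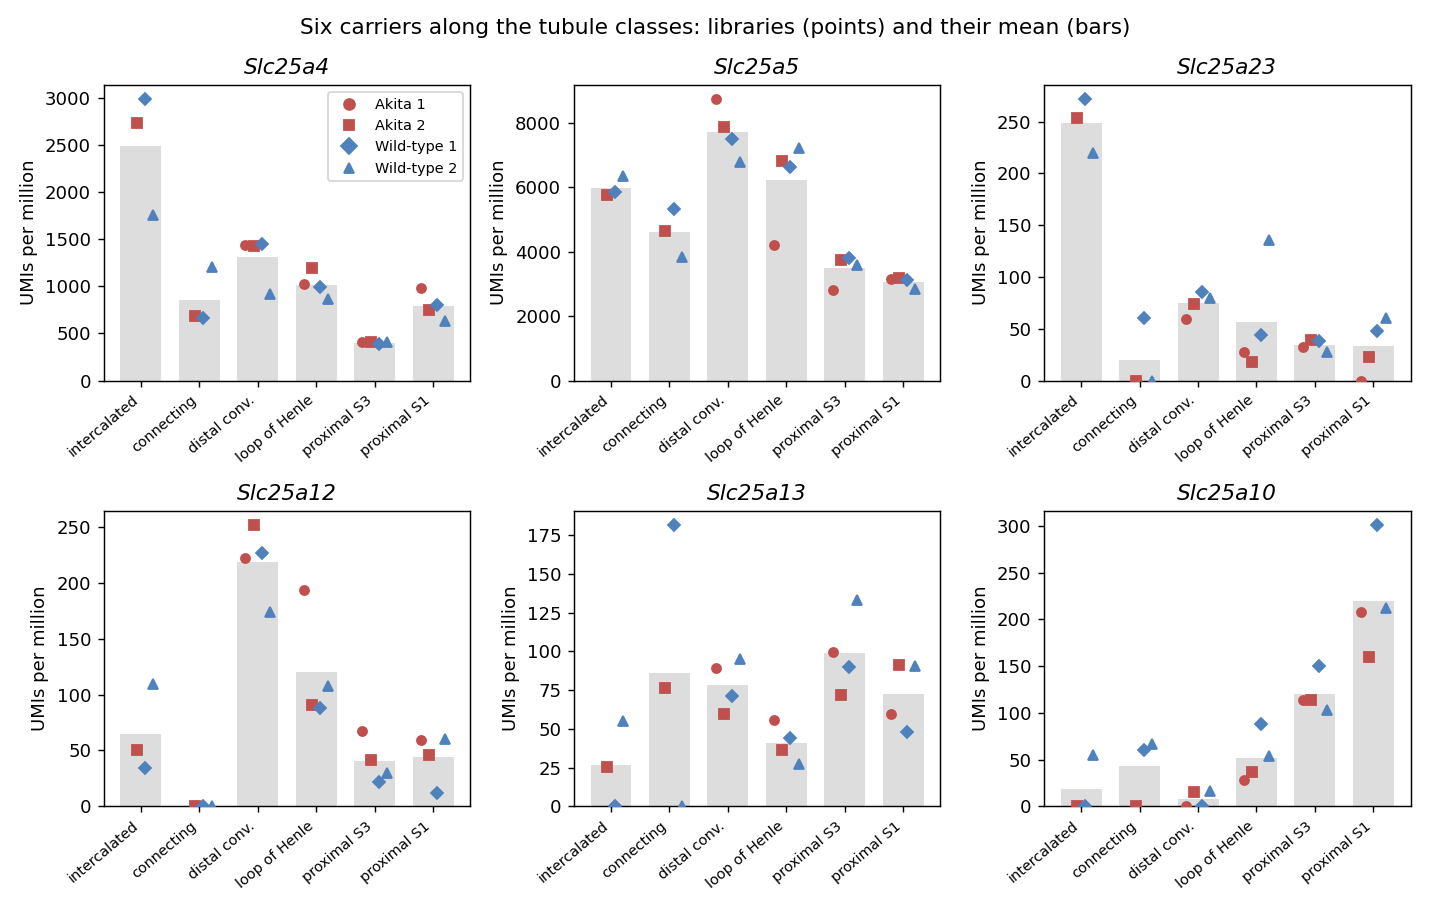
CPM of 6 carriers in intercalated-like, connecting tubule-like, distal convoluted tubule-like, loop of Henle-like, S3-like and S1-like cells (x axis), with points for libraries and bars for their mean (linear axes from 0). Slc25a4 and Slc25a23 are highest in intercalated-like cells, Slc25a12 in distal convoluted tubule-like cells, and Slc25a10 in S1-like cells.

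The phosphate carrier Slc25a3 (chr10:91116574-91124059, minus strand) brings phosphate into the matrix for ATP synthase and was the family's other abundant member. Slc25a3 had 712 and 951 CPM in the Akita and 982 and 964 CPM in the wild-type libraries in pooled distal tubule-like cells, against 593 and 554 CPM (Akita) and 579 and 599 CPM (wild type) in proximal tubule-like cells. Its log2 fold change was 0.53 ± 0.12 (SE; edgeR adjusted p = 0.00142), a small step without overlap between the classes. It passed in distal convoluted tubule-like (log2 fold change 0.53 ± 0.15, SE, edgeR adjusted p = 0.00409) and loop of Henle-like cells (log2 fold change 0.50 ± 0.16, SE, edgeR adjusted p = 0.0115), and did not in intercalated-like cells (log2 fold change -0.18 ± 0.19, SE, edgeR adjusted p = 0.523), where the sign turned to 0.42 with UMI totals alone, or in connecting tubule-like cells (log2 fold change 0.19 ± 0.27, SE, edgeR adjusted p = 0.654), where with UMI totals alone it was higher (log2 fold change 0.72 ± 0.26, SE, edgeR adjusted p = 0.0436).

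Slc25a23 and Slc25a25 are calcium-regulated carriers that exchange ATP-Mg for phosphate and so set the adenine nucleotide pool of the matrix. Slc25a23 had 40.4 and 85.0 CPM in the Akita and 105 and 119 CPM in the wild-type libraries in pooled distal tubule-like cells, against 32.3 and 30.1 CPM (Akita) and 35.4 and 23.6 CPM (wild type) in proximal tubule-like cells. The distal values lay above all proximal ones, although Akita 1 exceeded them by little. Intercalated-like cells accounted for the highest values, 254 CPM in Akita 2 and 272 and 219.5 CPM in the wild-type libraries, and in no other class did the mean pass 74.5 CPM. The log2 fold change over proximal cells was 1.44 ± 0.29 (SE; edgeR adjusted p = 0.000598) for the pooled class, 2.45 ± 0.31 (SE; edgeR adjusted p = 0.00149) for intercalated-like and 1.03 ± 0.40 (SE; edgeR adjusted p = 0.0377) for distal convoluted tubule-like cells. Slc25a23 entered the intercalated-like and the distal convoluted tubule-like test through those classes, where it was high, so these calls are no support. Crb3 overlaps Slc25a23 on the opposite strand and had 100 UMIs. The strand setting of the counting is not stated in the sources used here.

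Slc25a25 went the other way. Slc25a25 had 16.2 and 5.31 CPM in the Akita and 12.4 and 0 CPM in the wild-type libraries in pooled distal tubule-like cells, against 99.3 and 23.0 CPM (Akita) and 29.2 and 38.1 CPM (wild type) in proximal tubule-like cells. Akita 1 was high among proximal values, and in Akita 1 and Wild-type 2 the distal share of the proximal value was below that of the background genes. The log2 fold change was -2.47 ± 0.50 (SE; edgeR adjusted p = 0.000593), and in distal convoluted tubule-like cells, where no UMI was counted, the level was at least 3.90-fold lower than in proximal cells (against a floor of 3 counts over the group), and at least 2.01-fold lower without Akita 1.

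The aspartate/glutamate carriers Slc25a12 (aralar; chr2:71271063-71367749, minus strand) and Slc25a13 (citrin; chr6:6041218-6217173, minus strand) catalyse the same exchange, export of aspartate from the matrix against glutamate. Aralar is the form of brain and muscle and citrin that of liver, where it supplies aspartate for urea synthesis. Here the pair parted by segment, and the 250 bases upstream of each start are shown in the same way (RefSeq, GRCm38.p6, CG in capitals).
Slc25a12 (chr2:71367756-71368005, minus strand): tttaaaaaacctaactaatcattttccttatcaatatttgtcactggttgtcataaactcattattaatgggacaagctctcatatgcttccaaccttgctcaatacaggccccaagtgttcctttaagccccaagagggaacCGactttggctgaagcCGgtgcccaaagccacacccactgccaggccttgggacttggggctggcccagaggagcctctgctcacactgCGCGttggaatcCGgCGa
Slc25a13 (chr6:6217174-6217423, minus strand): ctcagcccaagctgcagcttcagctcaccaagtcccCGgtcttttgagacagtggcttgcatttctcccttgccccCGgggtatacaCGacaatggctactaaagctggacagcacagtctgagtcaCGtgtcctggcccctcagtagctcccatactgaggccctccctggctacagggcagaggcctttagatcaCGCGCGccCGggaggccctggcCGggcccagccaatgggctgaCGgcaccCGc
The Slc25a12 stretch held 6 CG dinucleotides at 49.6% G and C, and the Slc25a13 stretch 11 at 62.8%. The bases that follow the Slc25a12 stretch were not found at the start of an annotated transcript of the gene.

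Slc25a12 had 186 and 128 CPM in the Akita and 129.8 and 125 CPM in the wild-type libraries in pooled distal tubule-like cells, against 60.03 and 40.7 CPM (Akita) and 24.6 and 30.8 CPM (wild type) in proximal tubule-like cells. All distal values exceeded all proximal ones, and the log2 fold change of 1.78 ± 0.22 (SE; edgeR adjusted p = 4.08e-06) was the highest of the 24 members tested. Distal convoluted tubule-like cells held the most, 223 and 252 CPM in the Akita and 227 and 174 CPM in the wild-type libraries, with a log2 fold change of 2.27 ± 0.28 (SE; edgeR adjusted p = 8.98e-08) over proximal cells. Loop of Henle-like cells averaged 120.2 ± 50.01 CPM (log2 fold change 1.41 ± 0.43, SE, edgeR adjusted p = 0.00911), and intercalated-like cells, at 64.8 ± 39.8 CPM, did not pass. No Slc25a12 UMI was counted in the connecting tubule-like cells of the 3 libraries tested. The limit of 3 counts there, 52.1 CPM, lies above the proximal level of 31.7 CPM, so a lower level cannot be read. A gene on the opposite strand, Gm13641, overlaps Slc25a12 and had 57 UMIs.

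Citrin was lower in distal cells. Slc25a13 had 64.7 and 47.8 CPM in the Akita and 61.8 and 59.4 CPM in the wild-type libraries in pooled distal tubule-like cells, against 113 and 83.2 CPM (Akita) and 87.7 and 138 CPM (wild type) in proximal tubule-like cells. The groups did not overlap, and the log2 fold change was -0.94 ± 0.23 (SE; edgeR adjusted p = 0.00254). The difference also passed in loop of Henle-like cells (log2 fold change -1.51 ± 0.47, SE, edgeR adjusted p = 0.0105). In distal convoluted tubule-like cells Slc25a13 averaged 78.6 ± 16.4 CPM and did not pass. Intercalated-like cells held 3 UMIs in all, for a level 3.58 times lower than in proximal cells (95% interval 1.20 to 17.5, exact, counting error only).

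The ornithine carrier Slc25a15 (chr8:22375551-22398597, minus strand), which moves ornithine and citrulline between urea-cycle steps, had the steepest proximal bias of the members tested. Slc25a15 had 8.09 and 5.31 CPM in the Akita and 0 and 13.2 CPM in the wild-type libraries in pooled distal tubule-like cells, against 102 and 79.6 CPM (Akita) and 77.0 and 76.2 CPM (wild type) in proximal tubule-like cells. The distal libraries stayed under the share of proximal RNA seen as background there, so no distal expression can be read from them. The log2 fold change was -3.72 ± 0.44 (SE; edgeR adjusted p = 2.78e-06). Intercalated-like cells had no UMI, which puts them at least 2.72-fold lower than proximal cells against 3 counts over the group (1.68-fold without Akita 2 and 1.80-fold without Wild-type 2). Connecting tubule-like cells had no UMI either, but without Akita 2 the limit of 3 counts lies above the proximal level there. Between the proximal stretches it averaged 74.4 ± 23.3 CPM in S3-like and 104 ± 35.3 CPM in S1-like cells and did not pass.

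Among the carriers of organic acids, the dicarboxylate carrier Slc25a10 (chr11:120491840-120499187, plus strand), which exchanges malate or succinate for phosphate, was lower in distal cells. Slc25a10 had 8.09 and 15.9 CPM in the Akita and 30.9 and 39.6 CPM in the wild-type libraries in pooled distal tubule-like cells, against 129 and 133 CPM (Akita) and 177 and 118 CPM (wild type) in proximal tubule-like cells. The proximal values were above every distal one, and the distal share of the proximal level was below that of the background genes in Akita 1 and above it in the other 3 libraries. The log2 fold change was -2.64 ± 0.30 (SE; edgeR adjusted p = 1.56e-06). Along the proximal tubule it had 114 and 114 CPM in the Akita and 150.2 and 103 CPM in the wild-type libraries in S3-like cells, against 208 and 159 CPM (Akita) and 301 and 212 CPM (wild type) in S1-like cells, a log2 fold change of -0.90 ± 0.28 (SE; edgeR adjusted p = 0.0192) without overlap between the groups. With the lower-depth S3-like cluster alone that difference was -0.23 and did not pass.

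The citrate carrier Slc25a1 was also lower in distal cells. Slc25a1 had 8.09 and 10.6 CPM in the Akita and 18.5 and 26.4 CPM in the wild-type libraries in pooled distal tubule-like cells, against 25.4 and 53.1 CPM (Akita) and 49.3 and 58.0 CPM (wild type) in proximal tubule-like cells. Its log2 fold change was -1.67 ± 0.38 (SE; edgeR adjusted p = 0.00158), and Wild-type 2 had the highest distal value. The oxoglutarate/malate carrier Slc25a11, the partner of the aspartate/glutamate carriers in the malate-aspartate shuttle, did not pass. Slc25a11 had 169.8 and 79.7 CPM in the Akita and 124 and 132 CPM in the wild-type libraries in pooled distal tubule-like cells, against 64.7 and 81.4 CPM (Akita) and 89.3 and 65.3 CPM (wild type) in proximal tubule-like cells. The classes overlapped and the log2 fold change of 0.58 ± 0.24 (SE; edgeR adjusted p = 0.0541) missed the threshold, though it passed with UMI totals alone; Rnf167, which overlaps it on the opposite strand, had 79 UMIs.

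Slc25a39 (chr11:102402985-102407946, minus strand), needed for glutathione import into mitochondria and first studied for its part in haem synthesis, was the most abundant member with a proximal bias. Slc25a39 had 178 and 234 CPM in the Akita and 266 and 258 CPM in the wild-type libraries in pooled distal tubule-like cells, against 395 and 309.7 CPM (Akita) and 343 and 386 CPM (wild type) in proximal tubule-like cells. All proximal values exceeded all distal ones, for a log2 fold change of -0.70 ± 0.15 (SE; edgeR adjusted p = 0.000891). The difference passed in intercalated-like (log2 fold change -1.60 ± 0.23, SE, edgeR adjusted p = 0.00259), loop of Henle-like (log2 fold change -0.99 ± 0.24, SE, edgeR adjusted p = 0.00112) and distal convoluted tubule-like cells (log2 fold change -0.56 ± 0.19, SE, edgeR adjusted p = 0.0159), the last of which did not pass with UMI totals alone (log2 fold change -0.32). The iron importer mitoferrin 2, Slc25a28, did not pass (log2 fold change 0.56 ± 0.26, SE, edgeR adjusted p = 0.0837), though it did with UMI totals alone. Slc25a28 had 72.8 and 74.4 CPM in the Akita and 80.3 and 46.2 CPM in the wild-type libraries in pooled distal tubule-like cells, against 36.9 and 54.9 CPM (Akita) and 46.2 and 30.8 CPM (wild type) in proximal tubule-like cells.

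Cofactor carriers were lower in distal cells where they passed. Slc25a51, the mitochondrial NAD+ importer as known from human cells, fell with a log2 fold change of -1.29 ± 0.28 (SE; edgeR adjusted p = 0.0011). Slc25a51 had 56.6 and 21.3 CPM in the Akita and 24.7 and 39.6 CPM in the wild-type libraries in pooled distal tubule-like cells, against 87.7 and 65.5 CPM (Akita) and 64.6 and 96.1 CPM (wild type) in proximal tubule-like cells. It had no UMI in connecting tubule-like cells, where without Akita 2 or Wild-type 2 the limit of 3 counts lies above the proximal level. Slc25a42, which carries coenzyme A, fell by 2.52 ± 0.52 (SE; edgeR adjusted p = 0.000762) on the log2 scale. Slc25a42 had 8.09 and 5.31 CPM in the Akita and 0 and 19.8 CPM in the wild-type libraries in pooled distal tubule-like cells, against 48.5 and 46.0 CPM (Akita) and 44.6 and 38.1 CPM (wild type) in proximal tubule-like cells. In Akita 1 and Wild-type 1 the distal share of the proximal Slc25a42 value was below that of the background genes. No Slc25a42 UMI was seen in loop of Henle-like cells, at least 2.55-fold lower.

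Slc25a17, Slc25a36 and Slc25a16 did not pass the test. Slc25a17 had 56.6 and 21.3 CPM in the Akita and 30.9 and 46.2 CPM in the wild-type libraries in pooled distal tubule-like cells, against 50.8 and 61.9 CPM (Akita) and 60.03 and 54.4 CPM (wild type) in proximal tubule-like cells. Slc25a17 is a carrier of peroxisomes rather than mitochondria, and its log2 fold change was -0.73 ± 0.32 (SE; edgeR adjusted p = 0.0714). Slc25a36 had 16.2 and 31.9 CPM in the Akita and 24.7 and 19.8 CPM in the wild-type libraries in pooled distal tubule-like cells, against 36.9 and 28.3 CPM (Akita) and 50.8 and 43.5 CPM (wild type) in proximal tubule-like cells. The pyrimidine nucleotide carrier Slc25a36 thus overlapped between the classes (log2 fold change -0.83 ± 0.37, SE, edgeR adjusted p = 0.0738). Slc25a16 had 40.4 and 47.8 CPM in the Akita and 61.8 and 92.4 CPM in the wild-type libraries in pooled distal tubule-like cells, against 60.03 and 51.3 CPM (Akita) and 49.3 and 58.0 CPM (wild type) in proximal tubule-like cells. For Slc25a16 the difference was within its error (log2 fold change 0.06 ± 0.27, SE, edgeR adjusted p = 0.883).

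Slc25a30, the kidney mitochondrial carrier protein of the uncoupling protein branch, and Slc25a46, an outer-membrane member that acts in mitochondrial dynamics, did not pass either. Slc25a30 had 137 and 63.8 CPM in the Akita and 43.3 and 39.6 CPM in the wild-type libraries in pooled distal tubule-like cells, against 76.2 and 46.0 CPM (Akita) and 40.02 and 34.5 CPM (wild type) in proximal tubule-like cells. Slc25a46 had 32.3 and 42.5 CPM in the Akita and 55.6 and 26.4 CPM in the wild-type libraries in pooled distal tubule-like cells, against 34.6 and 28.3 CPM (Akita) and 38.5 and 39.9 CPM (wild type) in proximal tubule-like cells. The log2 fold changes were 0.38 ± 0.26 (SE; edgeR adjusted p = 0.247) and 0.08 ± 0.32 (SE; edgeR adjusted p = 0.874). Neither gene's distal libraries stood clear of the proximal ones.

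The 22 sparser members had between 1 UMI (Slc25a41, Slc25a43 and Slc25a54) and 97 UMIs (Slc25a45) over all retained cells, and 3 of them entered the pooled distal test without passing. Slc25a20, the carnitine/acylcarnitine carrier that lets fatty acids enter for oxidation, averaged 18.4 ± 8.07 CPM in pooled distal and 31.3 ± 7.97 CPM in proximal tubule-like cells (log2 fold change -0.89 ± 0.41, SE, edgeR adjusted p = 0.0905). Slc25a32, a carrier of folate and FAD, had a log2 fold change of 0.98 ± 0.52 (SE; edgeR adjusted p = 0.138), and Slc25a45 one of -0.53 ± 0.41 (SE; edgeR adjusted p = 0.312). Slc25a35 was tested only for distal convoluted tubule-like cells, where it averaged 44.5 ± 11.4 CPM, against 1.98 ± 1.93 CPM in proximal cells, and since it entered the test through that class its call is no support. Of mitoferrin 1 (Slc25a37), a single UMI was seen in loop of Henle-like cells. For a member with no UMI, a floor of 3 counts corresponds to 3.69 to 5.38 CPM in a whole library, and for the distal classes the floors are higher.

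The distal classes differed in which members passed against proximal cells. In loop of Henle-like cells 9 of 21 members tested passed, with Slc25a3, Slc25a4, Slc25a5 and Slc25a12 higher and Slc25a10, Slc25a13, Slc25a15, Slc25a39 and Slc25a42 lower, against 32.7% of all genes (12.2% higher, 20.5% lower). In distal convoluted tubule-like cells 12 of 24 passed, against 40% (16.4% and 23.6%): the same 4 genes, Slc25a23 and Slc25a35 were higher, and Slc25a1, Slc25a10, Slc25a15, Slc25a39, Slc25a42 and Slc25a51 lower. In connecting tubule-like cells 3 of 22 passed, Slc25a10, Slc25a15 and Slc25a51, each lower, against 23.7% (4.09% and 19.6%). In intercalated-like cells 8 of 23 passed, against 28.3% (8.2% and 20.1%), 2 higher (Slc25a4 and Slc25a23) and 6 lower, among them Slc25a10, Slc25a13, Slc25a15, Slc25a39 and Slc25a51. Some of these calls are no support, since the member entered the test only through the class where it was high. Among higher calls these were Slc25a12 in loop of Henle-like cells, Slc25a35, and Slc25a23 in both its classes. Among lower calls they included Slc25a15 throughout, Slc25a42, Slc25a1, and Slc25a10 in distal convoluted tubule-like and intercalated-like cells. Slc25a51 in connecting tubule-like and intercalated-like cells and Slc25a13 in intercalated-like cells belong here too.

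The median log2 fold change over all genes was -0.79 in connecting tubule-like, -0.29 in intercalated-like, -0.20 in loop of Henle-like and -0.08 in distal convoluted tubule-like cells, so lower calls in the first pair of classes are read against a shifted centre. UMI totals alone, tried after these fits were seen, raised the log2 fold changes by a median of 0.52, 0.59, 0.17 and 0.25 in the same order, and by 0.11 in the pooled class, which is why CPM ratios exceed the fitted folds. With them all 13 members that passed in the pooled class still did, and Slc25a11 (0.69) and Slc25a28 (0.68) passed too. In connecting tubule-like cells none of the 3 calls held and Slc25a3 passed; in distal convoluted tubule-like cells Slc25a1, Slc25a39 and Slc25a42 no longer passed and Slc25a32 did; in intercalated-like cells Slc25a5 was added, and Slc25a3, Slc25a16, Slc25a17 and Slc25a28, none of which passed, turned sign. Over all genes, intercalated-like calls went to 834 higher and 614 lower with UMI totals, against 429 and 1050 with TMM, and distal convoluted tubule-like calls to 1122 and 943, against 822 and 1187. Connecting tubule-like calls went to 312 and 470, against 197 and 944.

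Where 1 to 3 UMIs were counted, the fall is given as a ratio of pooled levels with its counting interval. Slc25a10 was 19.0 times lower in distal convoluted tubule-like (95% interval 5.21 to 157), 7.60 times lower in intercalated-like (2.08 to 63.1) and 4.16 times lower in connecting tubule-like cells (1.14 to 34.5). Slc25a15 was 14.3 times lower in loop of Henle-like (2.53 to 568) and 7.36 times lower in distal convoluted tubule-like cells (2.48 to 36.0). With the shared barcodes left out 3 members passed in loop of Henle-like cells, and the other distal classes had too few cells to fit. With every shared barcode assigned to 1 library 6 passed in loop of Henle-like and 6 in distal convoluted tubule-like cells. Fitted on the 2 libraries that then held enough cells, 5 passed in intercalated-like and 0 in connecting tubule-like cells.

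After these levels were seen, intercalated-like cells were also set against loop of Henle-like and distal convoluted tubule-like cells together. Of 7 members tested 3 passed, against 32.1% of 1394 genes (16.4% higher, 15.7% lower). Slc25a4 was higher in intercalated-like cells (log2 fold change 0.95 ± 0.12, SE, edgeR adjusted p = 0.000866), as was Slc25a23 (log2 fold change 1.65 ± 0.35, SE, edgeR adjusted p = 0.00926), and Slc25a12 was lower (log2 fold change -1.45 ± 0.46, SE, edgeR adjusted p = 0.0433). With UMI totals alone Slc25a12 did not pass (log2 fold change -1.28). The comparison was picked for these genes, so the values describe their pattern. Slc25a23 also entered the test only through intercalated-like cells and Slc25a12 only through the other classes, so their calls are no support.

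Genes around the carriers gave the following counts in pooled distal against proximal tubule-like cells (edgeR adjusted p under 0.05), to be read beside the 22.5% higher and 24.2% lower of all genes. Of 77 nuclear-encoded oxidative phosphorylation subunits tested (81 measured), 62 were higher and 1 lower, with a median log2 fold change of 0.66 beside -0.01 for all genes. In intercalated-like cells 8 of 78 were higher and 11 lower, near the 8.2% and 20.1% of all genes, with a median of -0.13 beside -0.29. These counts use TMM factors. UMI totals alone raised intercalated-like fold changes over all genes, as given above, and the subunits were not recounted on that scale. Of the 4 enzymes of the malate-aspartate shuttle, Got1 (1.22), Got2 (0.92) and Mdh2 (0.77) were higher on the log2 scale and Mdh1, at 0.27, did not pass. Among 6 enzymes of the urea cycle and carnitine system none was higher and 3 were lower, Ass1 (argininosuccinate synthase, -5.65), Asl (argininosuccinate lyase, -1.91) and Cpt2 (carnitine palmitoyltransferase, -1.06).

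A list of transporters without Slc25a symbols, mostly of the inner membrane, split as well, and its 5 calls among 11 tested were near the 46.7% of all genes. Ucp2, an Slc25-type uncoupling protein (3.13), Mtch1, an Slc25-type protein of the outer membrane (0.64), and the pyruvate carrier subunits Mpc1 (0.54) and Mpc2 (0.48) were higher and the serine transporter Sfxn1 was lower (-2.53). Among proteins listed as outer-membrane channels, Tspo was higher (1.21) and the channel Vdac1 lower (-0.60), of 4 tested. Of the 5 regulators of mitochondrial biogenesis Ppargc1a was higher (1.44) and Ppara lower (-2.33). Of 10 genes of protein import none was higher and Timm13 (-0.51), Timm9 (-0.90), Tomm70a (-1.04) and Tomm20 (-0.79) were lower. Between the proximal stretches, Oat, the ornithine aminotransferase (-2.46), Asl (-1.48), Ass1 (-0.58) and Mdh2 (-0.60) were lower in S3-like cells.

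Akita and wild-type cells were compared over all retained cells and within each main class, 2 libraries against 2. By edgeR 0 of 29 members passed in all cells, 0 of 27 in proximal and 0 of 8 in pooled distal tubule-like cells, and 0% of all 7169, 6099 and 2414 genes did. At an unadjusted p under 0.05 edgeR gave 68, 56 and 21 genes, among them 1, 1 and 0 members. DESeq2 and limma-voom also passed 0 genes each, with 7, 6 and 2 and with 57, 50 and 22 genes unadjusted. With the shared barcodes left out or assigned to 1 library 0 members passed as well, except that leaving them out left too few distal cells to fit. The groups hold 2 mice each, so a missed threshold does not show equal levels; the values below are given with their SE.

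Summed over the family, Akita and wild-type libraries overlapped. The members came to 6599 and 7316 CPM in the Akita libraries, against 7176 and 7065 CPM in the wild-type libraries. In proximal tubule-like cells the Akita mean differed from the wild-type mean by -330.3 CPM, with Akita 1 lowest of the 4, and by 46.5 CPM without Akita 1. With every shared barcode assigned to 1 library the difference was -889.6 CPM. Slc25a5 differed by -0.05 ± 0.25 (log2 scale ± SE) in all cells, -0.13 ± 0.28 in proximal and 0.03 ± 0.19 in distal cells.

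Members nearest the threshold on the higher side were Slc25a30 and Slc25a12. In all cells Slc25a30 had 89.6 and 50.3 CPM in the Akita and 40.6 and 35.5 CPM in the wild-type libraries. Both Akita libraries lay above both wild-type ones, with a log2 fold change of 0.83 ± 0.33 (SE; edgeR adjusted p = 1.00). Slc25a12 had 60.03 and 40.7 CPM in the Akita and 24.6 and 30.8 CPM in the wild-type libraries in proximal tubule-like cells, again without overlap, for 0.84 ± 0.39 (SE; edgeR adjusted p = 1.00). In all cells its values were 87.8 and 62.2 CPM in the Akita and 45.5 and 51.1 CPM in the wild-type libraries (log2 fold change 0.61 ± 0.29, SE, edgeR adjusted p = 1.00). With every shared barcode assigned to 1 library these differences were 0.99 for Slc25a30 in all cells, 0.79 for Slc25a12 in all cells and 0.81 in proximal cells.

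Slc25a25 was next in all cells at 0.75 ± 0.48 (SE; edgeR adjusted p = 1.00), but its 80.7 and 18.5 CPM in the Akita and 25.8 and 29.8 CPM in the wild-type libraries show that Akita 1 alone was high, and without Akita 1 the value was -0.54. Slc25a37 (0.56 ± 0.43) and Slc25a28 (0.26 ± 0.33) followed. In proximal cells Slc25a30 (0.67 ± 0.36), Slc25a37 (0.78 ± 0.47), Slc25a25 (0.79 ± 0.49) and Slc25a15 (0.22 ± 0.28) completed the 5 higher members with the smallest p.

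On the lower side the all-cell values nearest the threshold were Slc25a45 (-0.64 ± 0.40), Slc25a1 (-0.51 ± 0.36), Slc25a36 (-0.46 ± 0.34), Slc25a10 (-0.29 ± 0.26) and Slc25a33 (-0.56 ± 0.58), a pyrimidine nucleotide carrier. Slc25a36 had 32.3 and 29.1 CPM in the Akita and 45.5 and 38.4 CPM in the wild-type libraries. In proximal cells they were Slc25a36 (-0.56 ± 0.38), Slc25a1 (-0.40 ± 0.39), Slc25a45 (-0.41 ± 0.42), Slc25a46 (-0.33 ± 0.39) and Slc25a20 (-0.33 ± 0.43). Each had an adjusted p of 1.00 by edgeR.

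**Figure D4:**
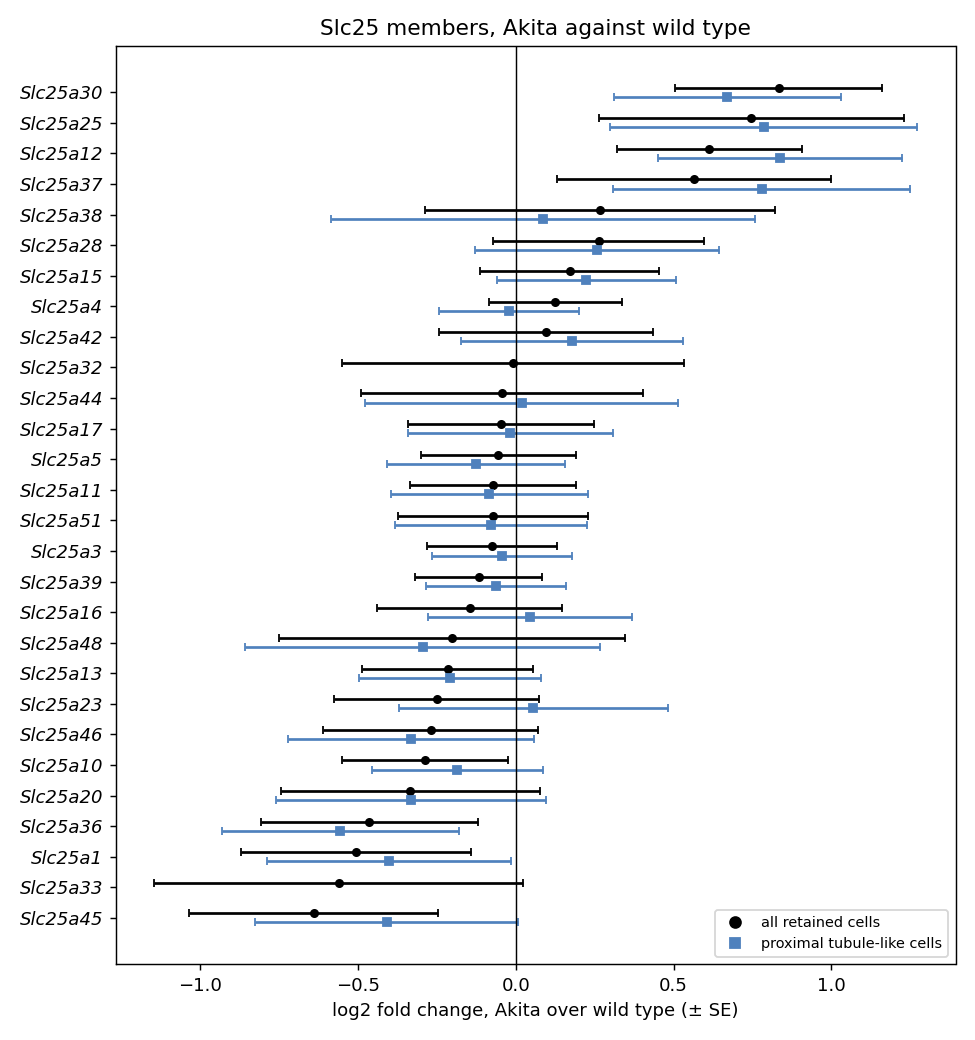
log2 fold change of members in Akita over wild type (bars ± SE, edgeR, 2 libraries against 2), in all retained cells (black circles, 28 of 29 members tested) and proximal tubule-like cells (blue squares, 26 of 27 members tested). No member passed an adjusted p of 0.05; Slc25a30 lies farthest right in all cells at 0.83 and Slc25a12 in proximal cells at 0.84.

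In pooled distal tubule-like cells 8 members could be tested. The class mix of these cells differed between libraries. Intercalated-like cells gave 16043 of 123668 UMIs in Akita 1 and 39446 of 188168 in Akita 2. They gave 29434 of 161842 in Wild-type 1 and 36441 of 151440 in Wild-type 2. Distal convoluted tubule-like cells gave 67364, 67388, 70422 and 63134 UMIs in the same order. The part of this mix in the values that follow was not tested. Slc25a23 (-0.72 ± 0.44), Slc25a39 (-0.29 ± 0.29), Slc25a3 (-0.19 ± 0.23) and Slc25a11 (-0.07 ± 0.40) had values below 0, and Slc25a4 (0.21 ± 0.23), Slc25a12 (0.29 ± 0.35), Slc25a28 (0.24 ± 0.52) and Slc25a5 values above 0. The Akita effect in distal cells was also tested against that in proximal cells: 0 of 24 members and 0% of 5531 genes passed by edgeR, with 68 genes and 0 members at an unadjusted p under 0.05.

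Counting members whose 2 Akita values both lay above both wild-type values gave 4 in all cells (Slc25a12, Slc25a30, Slc25a37 and Slc25a42), 13.8% of those tested beside 12.6% of all genes. Both below were 9 members (among them Slc25a1, Slc25a3, Slc25a17, Slc25a23, Slc25a33, Slc25a36, Slc25a45 and Slc25a46), 31% beside 11%. In proximal cells 5 were above (18.5% beside 11.9%) and 3 below (11.1% beside 11.1%), and in distal cells 0 above (0% beside 10.3%) and 3 below, Slc25a3, Slc25a23 and Slc25a39 (37.5% beside 13.3%). Proximal shares were thus near the background, and the distal share is of 8 members. The share of proximal RNA in distal cells differed between libraries without following genotype. Its part in these values was not tested, nor was that of the class mix.

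Promoter sequence was read for the 33 of 43 members with a RefSeq entry. For 26 of these the bases after the RefSeq start matched the start of an annotated transcript. Over the 250 bases upstream the members had a median of 58.4% G and C and 12 CG dinucleotides, against 52% and 6 over all 27025 promoters of the table. The latter were not limited to protein-coding genes, and only for members was an entry that matched an annotated transcript preferred. The sets are thus not alike. Words of binding motifs were searched on both strands. CAAAGTCCA (an HNF4-type site, HNF4 being a regulator of proximal genes) was in 0 of 33 beside 0.381% of all promoters, GTTAAT (part of an HNF1 site) in 0 beside 6.52%, TCAAGGTCA (an oestrogen-related receptor site) in 0 beside 0.366% and the palindromic word of NRF1, a regulator of mitochondrial genes, in 0 beside 0.781%. GGGGCGGGG (a GC box) was in 2, Slc25a39 and Slc25a40 (6.06% beside 10.5%), and CCAATC in 6, Slc25a17, Slc25a25, Slc25a28, Slc25a29, Slc25a34 and Slc25a42 (18.2% beside 15.1%). None of these words contains another, and the 4 stretches printed above hold none of them.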

How the data were processed

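Single cells of renal cortex from 2 Akita and 2 wild-type mice, 1 library per mouse, were profiled by Drop-seq. The deposited files hold raw UMI counts per gene and barcode; per the submitters' processing notes they were made by the authors with UMI-tools 0.5.3, STAR 2.5.2b and featureCounts 1.6.0 on GRCm38. The strand setting of the counting is not stated in the sources used here. Depth was 1016719 and 1200209 UMIs per file in Akita and 1303453 and 1115055 in wild type. Each file's 4 strings that are not barcodes were left out.

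The members and gene lists were chosen with earlier results of these data known. Cells with at least 200 genes and at most 50% mitochondrial UMIs were retained and clustered without Slc25a genes (scanpy 1.11.5, leidenalg 0.10.2, 2000 variable genes, 30 components, 15 neighbours, resolution 1). A cluster was named "-like" from at least 3 fixed markers among its 50 top genes by fold. Doublets were not removed.

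Counts were summed per library and class (at least 10 cells, 3 libraries, or 2 where an alternative left no more) and tested with edgeR 4.0.16 in R 4.3.3 (TMM, filterByExpr, quasi-likelihood, two-sided), with Benjamini-Hochberg adjustment over all genes tested and a threshold of 0.05. The fits were tested on simulated counts. Class comparisons had the library as a block. Akita and wild type were compared without a block, and whether the replicate numbers mark pairs could not be told from these data. DESeq2 1.42.0, limma 3.58.1, other filters, resolutions, left-out libraries and the handling of shared barcodes were alternatives; UMI totals without TMM factors, a crossed pairing, 1 S3-like cluster alone and the intercalated-like comparison with other distal cells were added after seeing the data. CPM is per 1000000 UMIs of the class. Intervals and the limit of 3 counts cover counting error only. Members with at least 100 UMIs are named, with every member that passed and, for Akita, the 5 with the smallest p per direction. Promoters are RefSeq's (GRCm38.p6). The counts include 1 member whose own values are not reported here.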

Additional observations from a re-analysis of the deposited data

How the results depend on the processing

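Most counts of members that passed depended on the setting, with causes not tested. Pooled distal against proximal cells: 13, and 12 to 15 with a library left out. At Leiden resolution 0.5 and at 2 only the intercalated-like class of the distal classes was found, so no pooled value exists there; that class gave 8 at both, the same 8 members as at resolution 1. Loop of Henle-like: 9, with 4 at 500 genes per cell, 3 with shared barcodes left out, 5 with classes from marker shares, and 7 to 10 with a library left out. Distal convoluted tubule-like: 12, with 6 by DESeq2, with shared barcodes in 1 file and by marker shares, and 5 to 10 with a library left out. Connecting tubule-like: 3, with 0 by DESeq2 and with shared barcodes in 1 file (2 libraries), 1 with UMI totals alone, 5 without mitochondrial genes and with background subtracted, 7 by marker shares, and 0 to 7 with a library left out. Intercalated-like: 8, with 5 by DESeq2 and with shared barcodes in 1 file (2 libraries), 14 without a filter, and 3 to 9 with a library left out. S3 against S1: 2, with 1 by DESeq2, at 500 genes, at 25% mitochondrial UMIs, at either other resolution and with 1 S3-like cluster alone, 0 with shared barcodes left out, and 1 to 3 with a library left out. Intercalated-like against loop of Henle- and distal convoluted tubule-like: 3, with 1 by DESeq2 and with shared barcodes in 1 file (2 libraries), 7 without a filter, and 2 to 5 with a library left out. The summed distal excess of 4130 CPM was 4597 at 25% mitochondrial UMIs and 3981 to 4249 with a library left out; the proximal Akita difference of -330.3 CPM was -889.6 with shared barcodes in 1 file and -707 to 46.5 with a library left out.

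No setting made a member pass between Akita and wild type. Signs that turned: in Akita distal cells with shared barcodes in 1 file, Slc25a5 to -0.16 and Slc25a11 to 0.014, and with UMI totals alone Slc25a5 to -0.0034. Leaving a library out turned these Akita differences, given as lowest to highest: in all cells Slc25a25 (-0.54 to 1.46, below 0 without Akita 1), Slc25a28 (-0.056 to 0.67, below 0 without Akita 2 or Wild-type 2) and Slc25a10 (-0.58 to 0.065, above 0 without Wild-type 1); in proximal cells Slc25a25 (-0.48 to 1.49) and Slc25a1 (-1.14 to 0.042), both without Akita 1; in distal cells Slc25a4 (-0.011 to 0.49), Slc25a28 (-0.12 to 0.74) and Slc25a5 (-0.025 to 0.10), each without Wild-type 2, Slc25a3 (-0.41 to 0.0055, without Akita 1) and Slc25a11 (-0.64 to 0.45, above 0 without Akita 2); and in the difference between classes Slc25a36 (-0.044 to 1.24, without Akita 2) and Slc25a5 (-0.076 to 0.44, without Akita 1). Deviations of libraries with the same replicate number correlated at -0.107 over all cells (2052 genes) and -0.103 in proximal cells (1581 genes). With 2 libraries per group this is the negative of the correlation between Akita 2 and Wild-type 1, which share barcodes. It therefore cannot show whether the numbers pair the libraries. The replicate block passed 0 members, as did the crossed pairing, with 75, 59 and 15 and with 111, 159 and 52 genes at an unadjusted p under 0.05.

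Some fits could not be made at this depth. Shared barcodes left out could not be fitted for the Akita comparison in distal cells, for connecting tubule-, distal convoluted tubule- or intercalated-like cells, for intercalated-like against other distal cells or for the difference between classes. Connecting tubule-like cells could not be fitted at 500 genes per cell or at 25% mitochondrial UMIs.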
